A study of Mus musculus with 2 samples.

Results

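The genes described here make, break down or sense eicosanoids, the signalling lipids built from arachidonic acid. They are the 10 genes Ptgs1, Ptgs2, Ptges, Hpgds, Alox5, Alox5ap, Ltc4s, Hpgd, Ptger2 and Ptger4, listed by name out of 55401 genes in the deposited matrix. The list was chosen with earlier results of these data known, so shares of all genes given beside it are descriptions. The data are single-cell RNA counts of live (DAPI-negative) lung cells sorted with an antibody to CD45.2, a form of a protein carried by all white blood cells. The labels give 1 wild-type sample and 1 Siah1a/2 KO sample. Siah1a and Siah2 encode ubiquitin ligases, and the study's title asks about their part in the differentiation of alveolar macrophages. Both samples share the treatment: lungs were taken 7 weeks after the first dose of urethane, a lung carcinogen, so there is no untreated control. The labels used here give no strain, sex, age, Cre driver or number of pooled animals. The matrix joins 2 libraries, told apart by the last digit of the barcode, and no label ties a digit to a genotype. They are therefore called library 1 and library 2, no comparison of genotypes was made, and with 1 library of each kind nothing below has a replicate check or a test.

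Prostaglandins arise when cyclooxygenases, encoded by Ptgs1 and Ptgs2, turn arachidonic acid into prostaglandin H, which terminal synthases then turn into the separate prostaglandins. Leukotrienes arise by another branch, in which 5-lipoxygenase (Alox5), aided by its activating protein (Alox5ap), makes leukotriene A. That product becomes either the neutrophil attractant leukotriene B or, through Ltc4s, the cysteinyl leukotrienes that constrict airways. In the lung, mast cells are known as a source of prostaglandin D and cysteinyl leukotrienes, and prostaglandin E acts on immune cells through receptors that include those encoded by Ptger2 and Ptger4.

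Library 1 held 8522 barcodes and 86227008 UMIs (unique molecular identifiers, each counted as 1 molecule), and library 2 held 6479 barcodes and 59459790 UMIs. The cell filter kept 8066 and 6113 cells, at a median of 8661 and 7875 UMIs per cell. A kept cell was put in a class when it had a UMI of enough marker genes of 1 lineage, at thresholds set after the data were seen. None of the 10 genes served as a marker. Cells that met the thresholds of more than 1 lineage, 964 and 661, stayed out of all classes. Of 17 classes, 13 had at least 50 cells in each library and are used below, which gives 26 levels per gene. The names stand for these marker gates: a C1q macrophage has at least 4 of C1qa, C1qb, C1qc, Ms4a7, Apoe and C3ar1. Mast cells and neutrophils needed at least 4 of 7 genes, non-classical monocytes 4 of 6 and migratory dendritic cells 3 of 6. The mast class was led by the protease genes Cma1, Mcpt4, Tpsb2 and Cpa3, and the neutrophil class by S100a9, S100a8 and Retnlg. A monocyte-macrophage intermediate also has at least 4 of 6 classical monocyte genes. Lyz2, a textbook monocyte gene, was low in classical monocytes, at 26.4 and 37.3 CPM (UMIs per 1000000 UMIs of the class), beside 475 and 592 for Lyz1. Alveolar macrophages, the cells named in the title, had no class of their own: in C1q macrophages their 8 listed markers summed to 2.03 and 1.65 CPM, and 5 and 6 of them were at 0. The highest class sums of these markers, 124 and 116 CPM, were in mast cells. Levels are CPM, and pairs of values are library 1 followed by library 2. Ranges after a level or a ratio are exact 95% Poisson or conditional binomial intervals, and they cover counting error only. Reads were taken from the 3′ ends of transcripts, so levels are not compared between genes. A lower level cannot tell fewer expressing cells from less RNA per cell.

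Of the 10 genes, 7 had their highest level in the same class in both libraries, against 49.1% of 14104 genes with at least 50 UMIs in these classes. For 6 of the 7 that level was also at least 2-fold above the next class in both libraries, against 9.86% of genes. Mast cells were highest for 4 genes (Ptgs1, Hpgds, Alox5 and Ltc4s), against 5.3% of genes, and 3 of them were at least 2-fold over the next class in both libraries, against 1.68%. Neutrophils were highest for Ptgs2 (6.94% of genes), non-classical monocytes for Hpgd (3.37%) and migratory dendritic cells for Ptger4 (5.94%). The other 3 genes, Alox5ap, Ptges and Ptger2, had different highest classes in the 2 libraries, and the intervals of their leading classes overlapped.

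**Figure D1:**
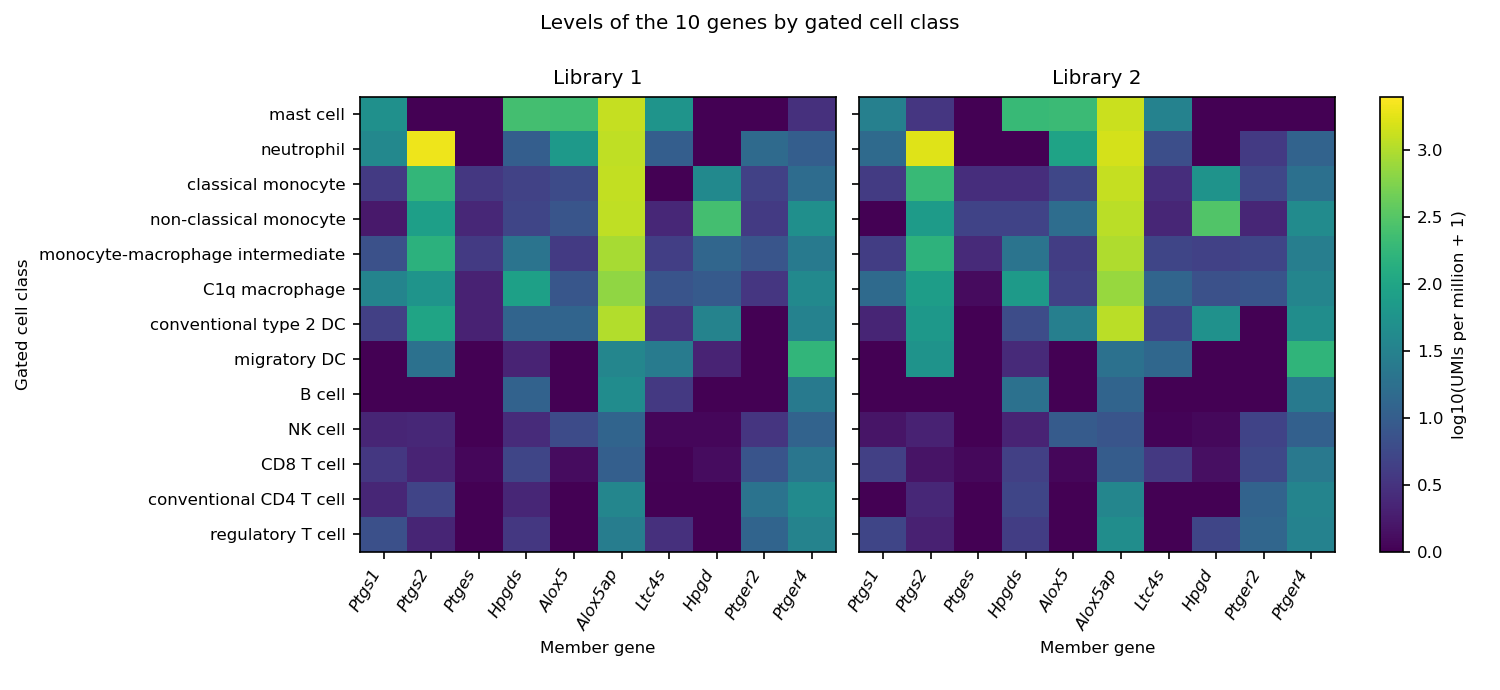
Levels of the 10 genes in the 13 gated classes of library 1 (left) and library 2 (right). Colour gives the base 10 logarithm of CPM plus 1. Ptgs2 is brightest in the neutrophil row, Hpgd in the non-classical monocyte row and Ptger4 in the migratory DC row, while Alox5ap is bright across all myeloid rows other than migratory DC.

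The 250 bases upstream of the RefSeq start (mouse build GRCm38.p6) are shown for 3 of the genes that were highest in mast cells. They are also shown for Ptgs2, which was highest in neutrophils. Sequences run 5′ to 3′ on the strand of the gene and end at the base before the start. In Ptgs1 and Hpgds capitals mark AGGAAGT, a site letter string of ETS factors such as PU.1. In Ptgs2 capitals mark TTNNGNAA, a form of the C/EBP site, and in Alox5 neither string was found. TTNNGNAA was marked in Ptgs2 alone, although Hpgds held it too, beginning 176 and 144 bases before the start. The capitals therefore show no contrast between mast cell and neutrophil genes.
Ptgs1, chr2:36230176-36230425, plus strand: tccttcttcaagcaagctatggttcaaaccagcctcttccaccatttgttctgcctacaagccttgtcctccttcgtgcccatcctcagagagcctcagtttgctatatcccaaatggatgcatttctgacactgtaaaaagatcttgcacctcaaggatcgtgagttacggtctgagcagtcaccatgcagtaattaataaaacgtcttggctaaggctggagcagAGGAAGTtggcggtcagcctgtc
Hpgds, chr6:65144731-65144980, minus strand: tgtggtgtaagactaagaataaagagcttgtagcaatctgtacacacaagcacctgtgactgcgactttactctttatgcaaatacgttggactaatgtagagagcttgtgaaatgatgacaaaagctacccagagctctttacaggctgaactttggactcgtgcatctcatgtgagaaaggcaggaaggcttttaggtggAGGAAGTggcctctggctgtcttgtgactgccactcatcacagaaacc
Alox5, chr6:116461179-116461428, minus strand: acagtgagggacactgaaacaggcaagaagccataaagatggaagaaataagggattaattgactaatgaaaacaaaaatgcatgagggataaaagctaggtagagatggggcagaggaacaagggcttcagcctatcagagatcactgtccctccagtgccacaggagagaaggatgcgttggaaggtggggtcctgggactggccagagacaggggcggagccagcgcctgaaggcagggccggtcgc
Ptgs2, chr1:150099781-150100030, plus strand: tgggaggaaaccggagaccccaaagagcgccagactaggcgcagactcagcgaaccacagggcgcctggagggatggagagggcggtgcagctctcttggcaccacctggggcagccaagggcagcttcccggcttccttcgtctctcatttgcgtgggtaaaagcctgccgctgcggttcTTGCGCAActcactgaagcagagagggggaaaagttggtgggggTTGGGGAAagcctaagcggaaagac

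Promoters of 9 of the 10 genes were in the table used, and Alox5ap was not. Searched on both strands, AGGAAGT was in 3 of the 9: it began 23 bases before the start of Ptgs1, 48 before that of Hpgds and 117 before that of Ltc4s. It was in 7.69% of 32851 promoters of this length. TTNNGNAA was in 5 of 9 (Ptgs2, Ptges, Hpgds, Hpgd and Ptger2) and in 36.8% of all promoters. In Ptgs2 it began 69 and 25 bases before the start. A gapped NF-kB type string was in 4 of 9 (Ptgs2, Ptges, Alox5 and Ptger4), against 45.8% of all. The Sp1 string GGGCGG was in 5 of 9, against 32.7%, and in Alox5 it began at the same base as a match of the NF-kB type string, 35 bases before the start. The GATA string AGATAA, held by 9.99% of all promoters, was in 0 of 9. The same was true of the AP-1 string TGANTCA, held by 6.75%. The E-box CACGTG, held by 6.02%, was in 0 of 9 too. The TATA box letters TATAAA, held by 12.4%, were likewise in 0 of 9. These strings were chosen after the levels had been seen, and a match describes letters only. The RefSeq starts can differ from the GENCODE gene coordinates given below. The Hpgds and Ltc4s stretches overlap the GENCODE genes, and the Ptges stretch lies within its GENCODE gene. The AGGAAGT of Hpgds falls inside that overlap, and that of Ltc4s lies upstream of it.

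Ptgs2, the inducible cyclooxygenase, lies on chromosome 1 from 150100031 to 150108227 on the plus strand (ENSMUSG00000032487.8). Coordinates of genes are on GRCm38. The level of Ptgs2 in neutrophils was 2028 (1841 to 2229) in library 1 and 1708 (1576 to 1848) in library 2, from 431 and 619 UMIs. Classical monocytes came next at 180 (169 to 191) and 192 (179 to 205), so neutrophils stood 11.3-fold and 8.92-fold above them. In both libraries the intervals of the 2 classes lay apart. A Ptgs2 UMI was found in 82.9% and 82.5% of neutrophils, at a median depth of 2540 and 2544 UMIs. It was found in 36.9% and 38.8% of classical monocytes at a median depth of 8325 and 8648, and in 1.25% and 1.13% of NK cells at 10227 and 9018. With cells thinned to 3000 UMIs, 95.5% of 22 and 76.7% of 30 neutrophils kept a UMI, after 60 and 113 shallower ones were left out. Thinned classical monocytes had one in 24.5% and 26.1% of cells, and NK cells in 0.171% and 0.196%.

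The rest of the myeloid cells formed a middle range for Ptgs2. Intermediates stood at 152 and 156, non-classical monocytes at 82.5 and 72.8, C1q macrophages at 57.3 and 76.4, and type 2 conventional dendritic cells at 96.9 and 64.8. Lymphoid classes were near the bottom, with 1.41 and 1.12 in NK cells, 1.16 and 0.53 in CD8 T cells and 0 UMIs in B cells of both libraries. Mast cells, a leading class for the other cyclooxygenase, held 0 and 1 UMI of Ptgs2, an upper bound of 7.39 CPM in library 1. Neutrophils, 82 and 143 shallow cells, held 11.3% and 18.6% of each library's Ptgs2 UMIs, while classical monocytes held 25.5% and 25.9%. Basophils passed the gate in library 2 alone, as 17 cells, and 9 of these carried Ptgs2, at 1698 (1432 to 1997) CPM from 145 UMIs. Phagocyte markers in the neutrophil class summed to 452 and 414 CPM, against 6822 and 6718 in classical monocytes.

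Among classical monocytes Ptgs2 followed a list of activation genes: Inhba (an activin subunit), Thbs1 (thrombospondin), Il1a (interleukin 1 alpha) and Vegfa (a vascular growth factor). Monocytes with none of the 4 had 44.8 and 48.5 CPM. Those with 1 had 137 and 137, and those with 2 had 339 and 265. Those with 3 had 255 and 701, from 22 and 20 cells. Median depth differed little along this series, from 7939 to 8587 UMIs in library 1 and from 8533 to 8993 in library 2. Grouped as 2 or more of the genes against fewer, the level was 332 and 342 against 110 and 116.

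Ptgs1, the constitutive cyclooxygenase (ENSMUSG00000047250.13, chromosome 2, 36230426 to 36252272, plus strand), had a different spread over cells. Mast cells held it at 50.1 (32.4 to 74.0) and 29.1 (15.0 to 50.8), neutrophils at 37.6 (16.3 to 74.2) and 13.8 (4.48 to 32.2), and C1q macrophages at 33.3 (29.4 to 37.6) and 13.8 (10.2 to 18.2). The intervals of these 3 classes overlapped in both libraries, so their order is not resolved. The mast and neutrophil values rest on 25 and 12 UMIs and on 8 and 5 UMIs, and 4 of the 8 sat in 1 neutrophil, without which the level was 19.0. The next class stood far lower, at 6.01 in library 1 (intermediates) and 4.11 in library 2 (regulatory T cells). C1q macrophages, the most numerous of the 3, held 40.3% and 25.1% of all Ptgs1 UMIs. A UMI was found in 21.1% and 10.1% of C1q macrophages (7.24% and 3.70% after thinning) and in 1.25% and 0.57% of NK cells (0.342% and 0.196% after thinning).

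Within C1q macrophages Ptgs1 was unevenly held. Cells with at least 3 of Mrc1, Folr2, Pf4, Cd163 and Cbr2, genes typical of resident tissue macrophages, had 58.6 and 32.9 CPM (93 and 40 cells). Of the remaining cells, those with an Arg1 UMI, the gene of arginase, had 14.6 and 15.9. Those then left with a UMI of Cxcl9, an interferon-induced chemokine gene, had 32.4 and 6.33, and cells with none of these had 24.2 and 7.69. These groups, used again below, do not overlap. By the number of the 5 resident genes, from 0 to 4, Ptgs1 stood at 10.3, 13.8, 50.9, 54.1 and 73.2 in library 1. In library 2, from 0 to 3, it stood at 0, 3.41, 18.7 and 15.0. The median depth moved with this count, from 9480 to 18132 UMIs in library 1 and from 9987 to 15342 in library 2, and its part in the result was not tested. The levels are relative to the UMIs of the same cells.

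Hpgds encodes the haematopoietic prostaglandin D synthase and lies on chromosome 6 from 65117293 to 65144908 on the minus strand (ENSMUSG00000029919.5). Mast cells held it at 239 (198 to 285) and 194 (154 to 241), from 119 and 80 UMIs, and C1q macrophages at 85.5 (79.2 to 92.3) and 70.9 (62.5 to 80.1). The intervals lay apart in both libraries, at 2.79-fold and 2.74-fold. Intermediates stood at 19.4 and 19.5, and the other classes at 17.3 or less, a value that B cells of library 2 reached on 3 UMIs. By share of cells, 74.3% and 56.1% of mast cells and 41.3% and 34.3% of C1q macrophages had a UMI, against 1.59% and 1.23% of NK cells. Thinned to 3000 UMIs, 31 of 62 and 24 of 53 mast cells kept a UMI, and the shares were 16.9% and 14.8% of C1q macrophages and 0.342% and 0.489% of NK cells. C1q macrophages outnumber mast cells and held 42.5% and 35.4% of all Hpgds UMIs, against 7.49% and 11.0% in mast cells.

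Over all mononuclear phagocytes Hpgds was highest with all the C1q macrophage markers, but not every step was upward in library 2. From 0 to 6 of the 6 C1q macrophage markers it ran through 0, 2.16, 3.44, 7.71, 10.6, 26.1 and 95.03 CPM in library 1. In library 2 the values were 2.66, 0.89, 5.33, 8.17, 14.9, 8.65 and 79.2. Median depth was 8047 and 8889 UMIs at 0 markers and 12841 and 12081 at 6, and its part was not tested. Ptgs1 was higher at the end of the same axis, at 35.7 and 14.7 with all 6 markers against 10.3 and 4.33 with 5. As with Ptgs1, Hpgds was highest among C1q macrophages in the cells with resident genes, at 161 and 143. Hpgds was lowest in those with Arg1, at 36.4 and 31.8, whereas Ptgs1 of library 2 was lowest in those with Cxcl9. Ptgs2 had the opposite order there, with 22.1 and 35.8 in the resident cells and 128 and 119 in the Arg1 cells. C1q macrophages with a Ptgs1 UMI held Hpgds at 119 and 155 CPM and those without at 72.3 and 56.7. Ptgs2 stood at 32.4 and 7.67 in the Ptgs1-positive cells and at 67.0 and 87.9 in the others. The Ptgs1-positive cells were deeper, at a median of 16261 and 17122 UMIs against 11084 and 11870.

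Ptges, the inducible prostaglandin E synthase that acts after Ptgs2 (ENSMUSG00000050737.13, chromosome 2, 30889471 to 30929863, minus strand), was barely detected. All kept cells together gave 69 and 31 UMIs, or 0.80 and 0.53 CPM. Classical monocytes had 14 and 8, at 2.57 and 1.78 CPM, and intermediates had 2.73 and 1.54 CPM. Mast cells, neutrophils, migratory dendritic cells, B cells, conventional CD4 T cells, regulatory T cells and NK cells held 0 UMIs in both libraries. At this depth the neutrophils, which had the highest Ptgs2, do not show whether they lack Ptges: 3 UMIs, the limit that a count of 0 allows, would be 14.1 CPM in library 1 and 8.28 in library 2.

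Alox5, the gene of 5-lipoxygenase (ENSMUSG00000025701.12, chromosome 6, 116410077 to 116461178, minus strand), was highest in mast cells, at 229 (188 to 275) and 206 (165 to 255) from 114 and 85 UMIs. Neutrophils followed at 65.9 (36.0 to 111) and 93.8 (65.0 to 131), with intervals apart from those of mast cells. Type 2 dendritic cells held 11.4 and 28.0, non-classical monocytes 6.93 and 15.6, and C1q macrophages 7.10 and 3.58. Of the 22 UMIs in type 2 dendritic cells of library 2, all lay in 2 cells. The lymphoid classes differed among themselves: NK cells held Alox5 at 5.05 (3.92 to 6.40) and 8.38 (6.74 to 10.3), from 68 and 90 UMIs, and CD8 T cells at 0.30 (0.11 to 0.66) and 0.13 (0.02 to 0.48), from 6 and 2. A UMI was found in 4.85% and 5.39% of NK cells and in 0.291% and 0.110% of CD8 T cells, at a median of 10227 and 9018 UMIs in NK cells and 7840 and 7086 in CD8 T cells. After thinning these were 1.11% and 1.27% of NK cells and 0.0989% and 0 of CD8 T cells. B cells, migratory dendritic cells, conventional CD4 and regulatory T cells held 0 UMIs. Upper bounds of these zeros were 10.0 and 21.3 CPM in B cells, above the NK cell levels, and 4.90 and 5.07 in conventional CD4 T cells. The 17 basophils of library 2 held Alox5 at 152 CPM, from 13 UMIs in 12 cells.

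Alox5ap, the arachidonate-binding partner of 5-lipoxygenase (ENSMUSG00000060063.9, chromosome 5, 149264767 to 149288153, plus strand), was high in all myeloid classes other than migratory dendritic cells. It stood at 1279 and 1326 in mast cells, 1181 and 1493 in neutrophils, 1210 and 1276 in classical monocytes, and 1190 and 1115 in non-classical monocytes. Type 2 dendritic cells held 1026 and 1116, intermediates 907 and 1001, and C1q macrophages 674 and 742. Migratory dendritic cells stood apart from the other dendritic cells, at 35.1 and 17.4 from 30 and 11 UMIs. Their level was in the range of the lymphoid classes, which ran from 9.82 (CD8 T cells) to 43.4 (B cells) in library 1 and from 6.98 (NK cells) to 45.2 (regulatory T cells) in library 2. In conventional CD4 T cells of library 1, 18 of 27 UMIs lay in 1 cell. Along the C1q marker axis of mononuclear phagocytes the level was 1277 at 0 markers and 662 at 6 in library 1, and 1306 and 777 in library 2.

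Ltc4s encodes leukotriene C synthase, which commits leukotriene A to the cysteinyl branch (ENSMUSG00000020377.15, chromosome 11, 50236461 to 50238616, minus strand). Mast cells held it at 56.1 (37.3 to 81.1) and 31.5 (16.8 to 53.9), from 28 and 13 UMIs. Migratory dendritic cells followed at 24.6 and 12.6, from 21 and 8 UMIs, and the intervals of these classes overlapped. With cells thinned to 3000 UMIs the levels of both classes were the same in library 1, at a log2 ratio of 0.0. C1q macrophages stood at 6.72 and 11.9, but 18 of the 43 UMIs of library 2 lay in 1 cell, and without it the level was 6.92. A single CD8 T cell of library 2 likewise held 38 of the 40 UMIs of its class, so the class level of 2.64 was 0.13 without it. A Ltc4s UMI was seen in 27.0% and 19.7% of mast cells (8.06% and 13.2% after thinning), and in 0.167% and 0.0945% of NK cells (0.0855% and 0.0978%). Ltc4s overlaps the antisense gene Gm26542, with 98 UMIs in all, and the sources used here do not say if counting used strand.

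The 3 leukotriene genes were next read in the same cells. Alox5 and Alox5ap UMIs occurred together in 62.2% and 53.0% of mast cells, in 12.2% and 18.9% of neutrophils, in 6.52% and 3.97% of C1q macrophages and in 0.669% and 0.189% of NK cells. All 3 genes with Ltc4s occurred in 20.3% and 10.6% of mast cells, in 1.22% and 0.699% of neutrophils and in 0 classical monocytes and NK cells. These shares are not thinned, and neutrophils were the shallowest class. A cyclooxygenase UMI beside a Hpgds UMI was seen in 19.9% and 11.6% of C1q macrophages and in 13.5% and 10.6% of mast cells. C1q macrophages were deeper, at a median of 12177 and 12074 UMIs against 6746 and 5064 in mast cells. The part of depth in these shares was not tested. In classical monocytes, which had Ptgs2 but little Hpgds, such a pair was seen in 1.71% and 0.194%.

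Markers of other cells were read beside these values. The 4 mast cell genes Cpa3, Cma1, Mcpt4 and Tpsb2 summed to 144303 and 146427 CPM in mast cells and to at most 65.9 elsewhere, in neutrophils of library 1. Of 6 platelet genes, summing to 180 and 247 CPM in mast cells, Itga2b made up 148 and 211 and Gp1ba 28.1 and 33.9. Gp9 had 2 and 1 UMIs there, or 4.01 and 2.42 CPM, and the other defining platelet genes Ppbp, Gp1bb and Tubb1 were at 0. Phagocyte markers summed to 116 and 80.0 in mast cells. Lyz2 was at 0 there, which says little because it was only 26.4 and 37.3 CPM in classical monocytes. The 8 alveolar macrophage markers summed to 124 and 116 CPM in mast cells.

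**Figure D2:**
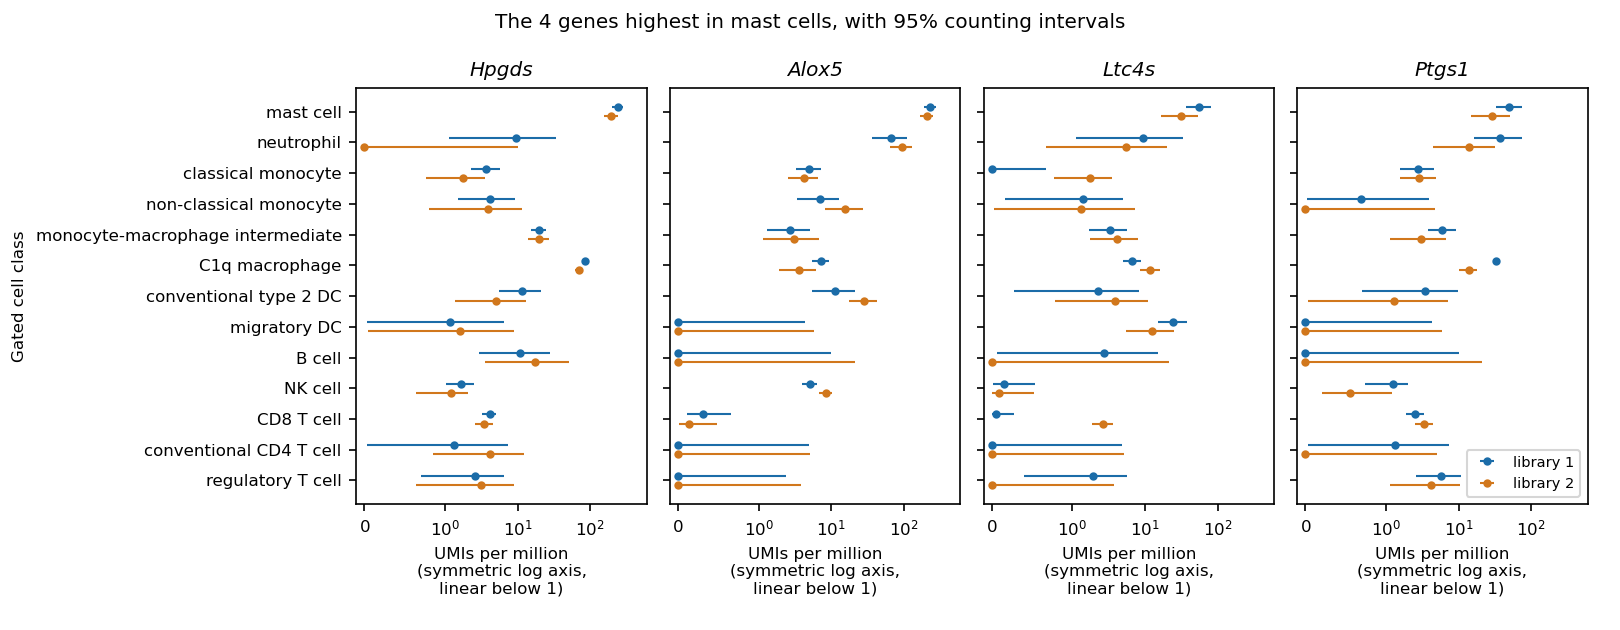
Levels of Hpgds, Alox5, Ltc4s and Ptgs1 in the 13 gated classes, in CPM on a symmetric log axis that is linear below 1. Points are library 1 (blue) and library 2 (orange) and bars are exact 95% Poisson intervals. The mast cell points are highest in all 4 panels, well apart from the next class for Hpgds and Alox5 and overlapping it for Ltc4s and Ptgs1.

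Hpgd, the 15-hydroxyprostaglandin dehydrogenase that inactivates prostaglandins, lies on chromosome 8 from 56294585 to 56321043 on the plus strand (ENSMUSG00000031613.9). Non-classical monocytes, the patrolling monocytes of vessels, held it at 238 (213 to 264) and 303 (265 to 344), from 343 and 233 UMIs. Classical monocytes followed at 40.4 and 54.0, so non-classical monocytes stood 5.89-fold and 5.61-fold above, with intervals apart. A UMI was found in 42.4% and 53.3% of non-classical and in 12.0% and 14.3% of classical monocytes (thinned, 33.2% and 41.1% against 7.42% and 9.55%), and in 0.167% and 0.189% of NK cells. Type 2 dendritic cells held 31.9 and 52.1, intermediates 12.3 and 3.60, and C1q macrophages 8.11 and 6.07. Mast cells, neutrophils, B cells and conventional CD4 T cells held 0 UMIs in both libraries. Upper bounds were 17.4 and 10.2 CPM in neutrophils and 10.0 and 21.3 in B cells, above the C1q macrophage levels. Hpgd overlaps Gm45540, with 41 UMIs in all, on the same strand.

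The level of Hpgd was graded along the monocyte markers. Over mononuclear phagocytes with 0 to 6 of the non-classical genes Ace, Treml4, Eno3, Spn, Pou2f2 and Adgre4 it ran through 7.90, 14.3, 23.1, 54.0, 95.5, 179 and 321 CPM in library 1. In library 2 it ran through 10.6, 26.8, 33.6, 62.4, 212, 243 and 366, so each step was upward in both. Along the C1q markers it was 74.4 and 45.1 at 0 markers, 110 and 129 at 1 marker and 8.63 and 2.93 at all 6. Along the activation list in classical monocytes it went the other way from Ptgs2, through 100, 29.1, 22.5 and 0 in library 1 and 116, 53.6, 27.2 and 9.88 in library 2.

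Ptgs2 and Hpgd, the genes of the inducible cyclooxygenase and the inactivating enzyme, were then read in the same classical monocytes. Ptgs2 UMIs were found in 16.9% (13 of 77) of Hpgd-positive and 39.6% (224 of 565) of Hpgd-negative classical monocytes of library 1. In library 2 they were found in 20.3% (15 of 74) and 41.9% (185 of 442). The Hpgd-positive cells were slightly deeper, at a median of 9051 against 8215 and 8990 against 8587 UMIs. They also had more of the non-classical monocyte markers, a mean of 1.61 against 0.95 in library 1 and 1.30 against 0.82 in library 2, and the part of these markers in the result was not tested. As levels, Ptgs2 stood at 54.4 against 198 and 109 against 206 CPM. Non-classical monocytes had the same direction, with Ptgs2 at 59.6 in Hpgd-positive and 99.8 in Hpgd-negative cells of library 1 and at 46.7 and 106 in library 2. Cells of 1 library share their animal or pool, so these are descriptions of 2 libraries.

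**Figure D3:**
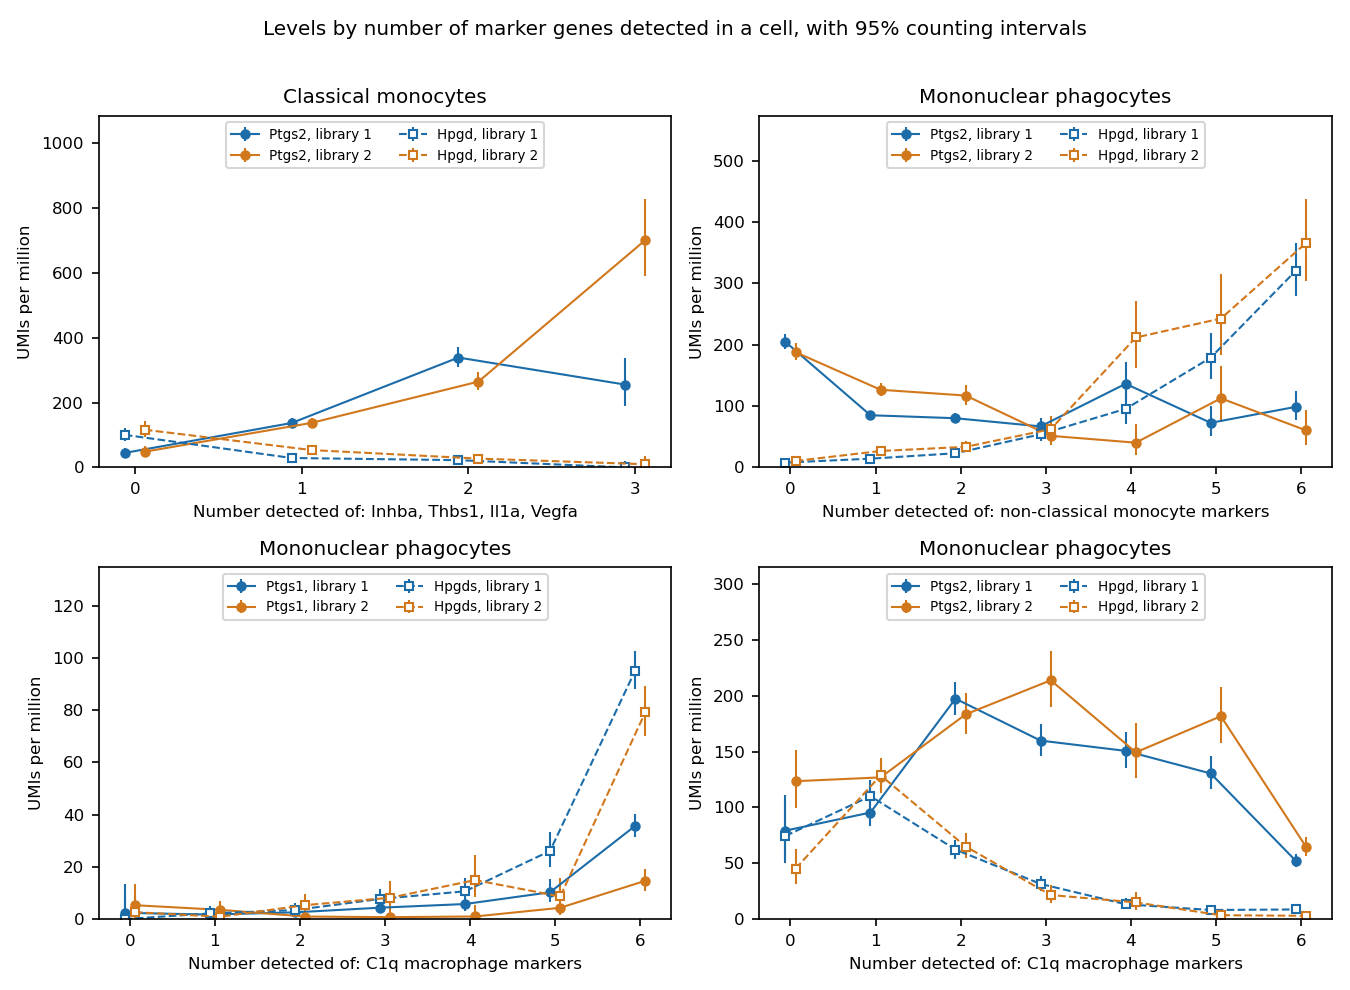
Levels in CPM (vertical axes) by the number of listed marker genes with a UMI in the cell (horizontal axes), for library 1 (blue) and library 2 (orange), with exact 95% Poisson intervals. In classical monocytes (top left) Ptgs2 is low and Hpgd high at 0 activation genes. Over mononuclear phagocytes Hpgd climbs to 321 and 366 with all 6 non-classical markers (top right), Hpgds and Ptgs1 are highest with all 6 C1q markers (bottom left), and Hpgd is lowest towards the C1q end (bottom right).

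Ptger4 encodes a prostaglandin E receptor that raises cyclic AMP (ENSMUSG00000039942.15, chromosome 15, 5206661 to 5244187, minus strand). Migratory dendritic cells, the Ccr7-expressing cells that move to lymph nodes, held it at 174 (148 to 205) and 164 (134 to 199), from 149 and 104 UMIs. The next classes were non-classical monocytes in library 1, at 48.5, and type 2 dendritic cells in library 2, at 45.8. Migratory dendritic cells stood 3.59-fold above the next class in each library, with intervals apart. A UMI was seen in 73.5% and 60.4% of migratory and in 23.9% and 36.5% of type 2 dendritic cells, which after thinning were 37.1% and 30.0% against 12.1% and 13.5%. In NK cells the shares were 11.0% and 8.60%, or 3.50% and 3.91% after thinning.

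Ptger4 was read in all classes but mast cells of library 2. Conventional CD4 T cells held 41.2 and 33.0, C1q macrophages 40.0 and 33.9, regulatory T cells 32.7 and 30.8, CD8 T cells 20.5 and 22.7, classical monocytes 14.7 and 16.9, and NK cells 11.1 and 9.87. Mast cells were at the bottom, with 1 UMI in library 1 and 0 in library 2. Ptger4 overlaps Ttc33 on the opposite strand, a protein-coding gene with 3140 UMIs in all, so some reads may be shared if strand was not used. Plasmacytoid dendritic cells, with 24 and 21 cells too few for the main classes, had 102 and 156 CPM.

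Ptger2, the other cyclic AMP-coupled prostaglandin E receptor (ENSMUSG00000037759.6, chromosome 14, 44988195 to 45003820, plus strand), was low everywhere, with 401 and 252 UMIs over all kept cells. Conventional CD4 T cells held 18.6 (10.2 to 31.2) and 11.0, and regulatory T cells 11.5 and 12.3. CD8 T cells held 131 and 67 of these UMIs, at 6.63 and 4.42. NK cells had 2.37 and 3.82, classical monocytes 3.49 and 4.22, and C1q macrophages 2.41 and 6.62. Migratory dendritic cells, the leading class for Ptger4, held 0 UMIs of Ptger2, as did mast cells, type 2 dendritic cells and B cells. Upper bounds of these zeros were 4.32 and 5.83 CPM in migratory dendritic cells, 7.39 and 8.94 in mast cells and 10.0 and 21.3 in B cells. These bounds reach the levels of other classes, so absence is not shown. Its intervals overlapped among the leading classes, so no class is called highest. The antisense gene Gm17173, with 200 UMIs, overlaps Ptger2.

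Of the wider eicosanoid pathway 48 listed genes matched a row, and 32 of these had at least 50 UMIs in the classes. Of the 32, 20 had the same highest class in both libraries, against 49.1% of all genes, and for 5 it was at least 2-fold above the next, against 9.86%. This list was chosen with earlier results of these data known. Among genes that release arachidonic acid or remove related lipids, Pla2g4a, the cytosolic phospholipase, stood at 65.0 and 63.3 in intermediates. Pla2g7, which cleaves platelet-activating factor, stood at 503 and 737 in neutrophils. Of the terminal synthases, Tbxas1 (thromboxane) stood at 60.7 and 67.3 in C1q macrophages and Ptgis (prostacyclin) at 2.97 and 2.61 in NK cells. Ptgds, the other prostaglandin D synthase, had 0 and 2 UMIs.

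In the leukotriene branch, Lta4h, which makes leukotriene B, was highest in NK cells, at 108 and 107. Mgst3, a glutathione transferase of this branch, stood at 50.1 and 64.8 in type 2 dendritic cells. Dpep2, a dipeptidase that trims cysteinyl leukotrienes, stood at 70.2 and 102 in intermediates. The other listed lipoxygenases had few UMIs. These were 39 and 29 of Alox8, 6 and 1 of Aloxe3, 2 and 12 of Alox15, 1 and 0 of Alox12 and 0 of Alox12e. Dpep1 also had 0.

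Receptors of the pathway were spread over further classes. Ltb4r1, the high-affinity leukotriene B receptor, stood at 214 and 286 in classical monocytes and at 192 and 291 in intermediates. Cysltr1, a cysteinyl leukotriene receptor, stood at 126 and 145 in type 2 dendritic cells. Fpr2, which binds formylated peptides and lipoxins, stood at 226 and 284 in neutrophils, above 79.0 and 67.1 in classical monocytes. Ptger3, another prostaglandin E receptor, was highest in mast cells at 36.1 and 50.9, with the next class at 4.71 and 1.30. Mast cells held 1 Ptger4 UMI and 0 Ptger2 UMIs over both libraries. Ptgir, the prostacyclin receptor, stood at 23.6 and 28.6 in non-classical monocytes. Ptgdr, a receptor for the prostaglandin D that Hpgds makes, and Oxgr1 had 0 UMIs. Ptgdr2, the other prostaglandin D receptor, had 12 and 13 UMIs over all kept cells.

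The libraries were then set side by side. At 50 or more UMIs in both sums together, 45 gene and class pairs of 9 genes could be compared, and 42 lay within 2-fold. The 3 past 2-fold, 1 higher and 2 lower in library 2, stand beside 1.79% of 76040 pairs over all genes. Of the 45 counting intervals, 26 included a log2 ratio of 0, 11 lay above it and 8 below. Over all pairs, 12.4% of intervals lay above 0 and 8.55% below. The 3 pairs were Ptgs1 in C1q macrophages, Hpgd in intermediates and Ptgs2 in migratory dendritic cells. With 1 library of each kind, none of these can be told apart from differences between animals, sorts or preparations.

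Ptgs1 in C1q macrophages stood at 33.3 in library 1 and 13.8 in library 2, from 263 and 50 UMIs, which gave a log2 ratio of -1.26 (-1.74 to -0.83). In that class 1.14% of genes were lower in library 2 by more than 2-fold. The most that a single cell held was 8 of the 263 and 7 of the 50 UMIs, and without these cells the levels were 32.4 and 12.0. By macrophage state the ratio was -0.81 (-1.55 to -0.17) in cells with resident genes, -2.28 (-3.61 to -1.31) in cells with Cxcl9 and -1.56 (-3.02 to -0.54) in cells with none of the markers. In cells with Arg1 it was 0.12 (-1.21 to 1.50), and the difference between states was not tested. The summed level of the 5 resident genes was 937 and 995 CPM in C1q macrophages. Cells with at least 3 of these genes were 93 of 598 and 40 of 277, and their part in the Ptgs1 ratio was not tested. Over all kept cells Ptgs1 stood at 7.61 and 3.37, which gave a log2 ratio of -1.17 (-1.41 to -0.94), beside 1.32% of genes lower past 2-fold. That sum includes the C1q macrophages, which were 7.41% and 4.53% of kept cells, and the part of this share was not tested. In CD8 T cells, the other class with enough UMIs, Ptgs1 stood at 2.53 and 3.36.

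Ptgs2 in migratory dendritic cells stood at 17.6 (9.83 to 29.0) and 55.3 (38.5 to 76.9), which gave a log2 ratio of 1.63 (0.75 to 2.63), beside 1.22% of genes higher past 2-fold. It rested on few cells: 7 of 15 UMIs lay in 1 cell of library 1 and 19 of 35 in 1 cell of library 2, and without these the levels were 9.56 and 25.9. With 1 more marker required the log2 ratio was 0.82, no longer past 2-fold. In other classes Ptgs2 moved less and in both directions. It was lower in library 2 in neutrophils, at -0.25 (-0.43 to -0.07), and in type 2 dendritic cells, at -0.57 (-1.11 to -0.06), where 32 of 85 UMIs lay in 1 cell of library 1 and the ratio was 0.69 with 1 more marker required. It was higher in C1q macrophages, at 0.42 (0.19 to 0.63).

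A list of immediate early, heat shock and inflammatory genes was read beside Ptgs2. This list was chosen with earlier results of these data known. In neutrophils 14 of 21 such genes had intervals below 0, against 10.5% of all genes there, and 1 above, against 12.9%. Their median log2 ratio was -0.40, against 0.06 for all genes, with Jun at -1.17, Nlrp3 at -0.87, Nfkbia at -0.86, Cxcl2 at -0.73 and Il1b at -0.11. In classical monocytes 15 of 23 lay below, against 8.6% of all genes, and 4 above, against 12.1%, while Ptgs2 itself stood at 0.09. In intermediates 11 of 21 lay below, against 8.17% of all genes, and 4 above, against 9.87%, with Ptgs2 at 0.04. In C1q macrophages, where Ptgs2 was higher in library 2, 10 of 23 lay above, against 12.9% of all genes, and 4 below, against 8.46%, with a median of 0.12. There Egr1 stood at 1.11, Cxcl3 at 3.16 and Il10 at 1.55, Il1a at -2.45, and Fos and Il1b at 0.02 and -0.07. Their part in the Ptgs2 ratios was not tested.

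Hpgd in intermediates stood at 12.3 and 3.60, from 45 and 7 UMIs, which gave a log2 ratio of -1.69 (-3.17 to -0.61), beside 1.03% of genes lower past 2-fold. With 1 more marker required it was -3.73. The non-classical markers in that class were lower in library 2 too, at a sum of 231 against 136 CPM, and their part in the result was not tested. In the monocytes themselves Hpgd was higher in library 2, at 0.35 (0.10 to 0.59) in non-classical and 0.42 (0.15 to 0.69) in classical monocytes. Other ratios within 2-fold whose intervals lay off 0 included Hpgds in C1q macrophages at -0.27 (-0.48 to -0.06), Alox5ap in neutrophils at 0.34 (0.12 to 0.56) and Alox5 in NK cells at 0.73 (0.26 to 1.21). The neutrophil value was 0.078 with the stricter cell filter of 1000 genes and 5% mitochondrial UMIs, and the NK cell value was 0.20 with cells thinned. Alox5ap in NK cells went the other way, at -0.69 (-1.11 to -0.28), or -0.24 with cells thinned, and Ptger2 in CD8 T cells stood at -0.58 (-1.03 to -0.15).

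**Figure D4:**
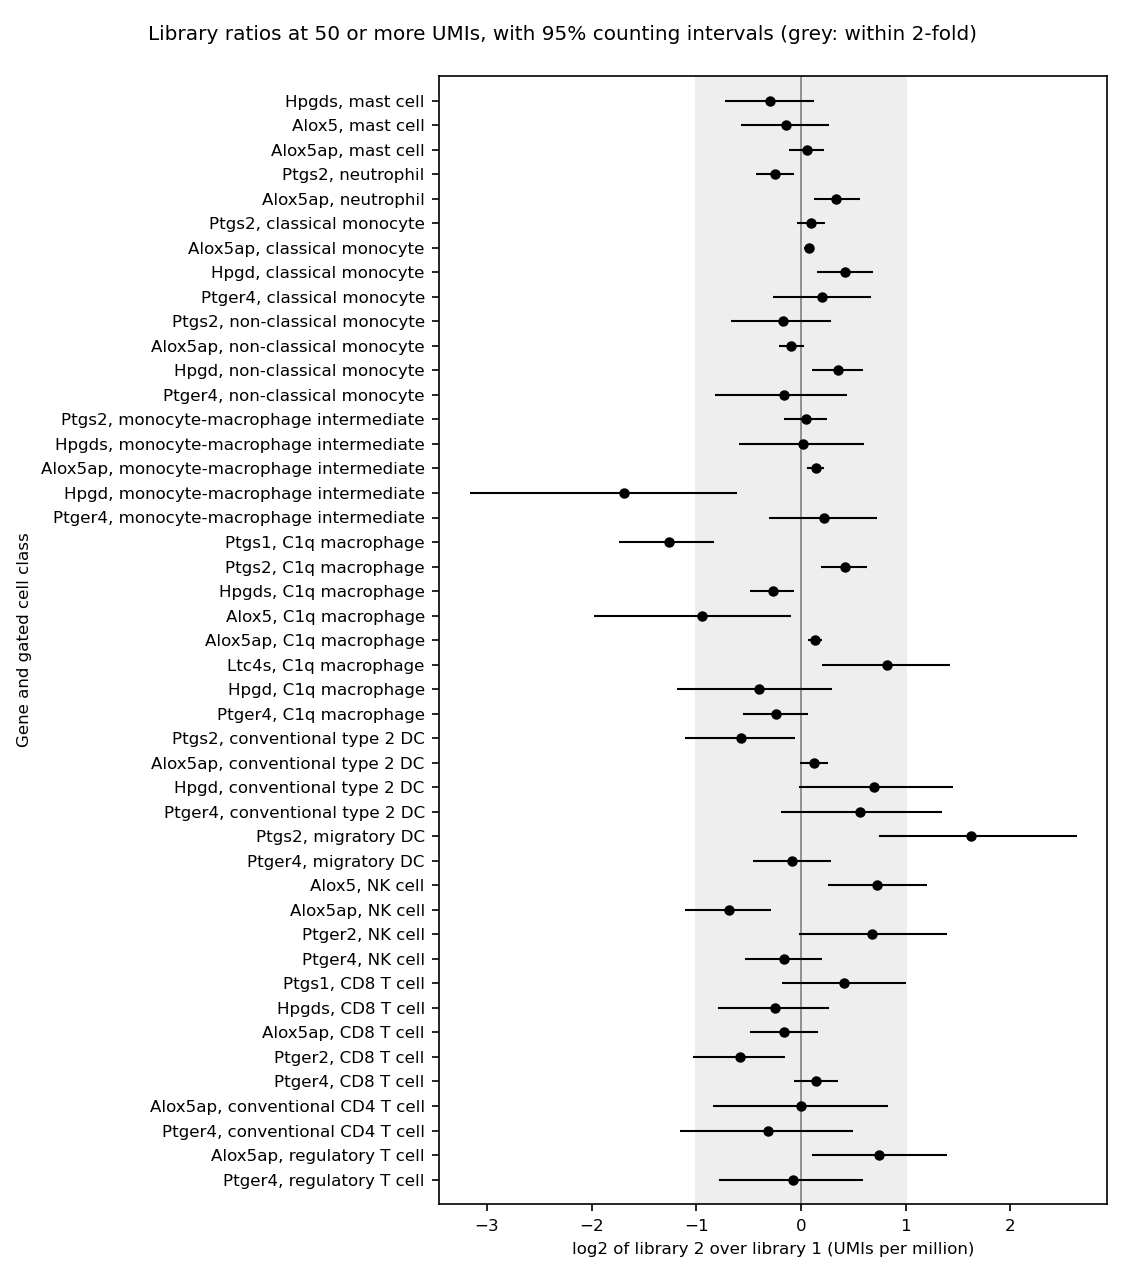
Log2 ratio of library 2 over library 1 for the 45 gene and class pairs with at least 50 UMIs, with exact 95% conditional binomial intervals (bars) and the range within 2-fold in grey. Ptgs1 in C1q macrophages and Hpgd in intermediates lie to the left of the grey band and Ptgs2 in migratory DC to its right.

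In C1q macrophages, the class with most members above the UMI minimum, the median log2 ratio was -0.25 over 8 of the 10 genes, 0.15 over the pathway list and 0.03 over all genes at that minimum. Of the pathway list 4 gene and class pairs were past 2-fold. Those higher in library 2 were Mgst1 in neutrophils (75.3 and 293 CPM, beside 3.0% of genes there), Dpep2 in non-classical monocytes (18.7 and 53.3, beside 0.937%) and Cysltr1 in CD8 T cells (1.01 and 2.05, beside 0.905%). The pair lower in library 2 was Ggt5, which cleaves leukotriene C, in C1q macrophages (7.48 and 2.48, beside 1.14%).

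Genes whose levels over the 26 class and library points were most like each of the 10 were sought among 10649 genes, by Pearson's r of log2(CPM + 1). The points share libraries and differ in depth, so r is a description. Ptgs2 was most like Il1b, the gene of interleukin 1 beta (r = 0.968), and then Hlx and Gm14548. Alox5ap was most like I830077J02Rik (0.977), Emilin2 and Pstpip2. Tkt and Cd300lg were among the 3 genes most like Hpgd. Ptger4 was most like Stxbp3 (0.910), Etv3 and Ahcyl2. Ltc4s was most like Cd63 (0.900), Rab13 and Cadm1. Alox5 was most like Arap3 (0.878), Rgs18 and Mctp1. Hpgds was most like Tpp1 (0.881), Fblim1 and Psd3, and Ptgs1 like Etv5 (0.840), Tns1 and Tnnt1. Low counts limit the values for Ptger2 (Tpst2, Vmp1 and Hif1a) and Ptges (Plcb1, Arhgef37 and Ifi203-ps). Among the 10 genes themselves r was 0.800 for Ptges with Hpgd, where Ptges rests on few UMIs. It was 0.713 for Ptgs2 with Alox5ap, 0.704 for Alox5 with Alox5ap, 0.648 for Ptgs1 with Alox5 and 0.613 for Ptgs1 with Hpgds. The lowest values were -0.68 for Alox5 with Ptger4 and -0.60 for Ptgs1 with Ptger4.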

How the data were processed

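Live CD45-positive lung cells of 2 samples were profiled with 10x 3′ chemistry (v3.1), per the labels' protocols. The values are raw UMI counts per gene and barcode, which the authors deposited without normalization, made with Cell Ranger 6.1.2 per the submitters' processing notes and the file headers, on mm10 per the same notes. The annotation and the strand setting are not given in the sources used here.

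Low-quality barcodes, under 500 genes or over 10% mitochondrial UMIs, were removed. UMIs were summed per marker gate and library and divided by the gate's UMIs. The gate thresholds were set after the data were seen. The members and lists were chosen with earlier results of these data known. No doublet caller was run. Cells passing the thresholds of more than 1 lineage (12.0% and 10.8%, median 17959 and 16674 UMIs) were left out. The libraries share 11 barcode sequences, 10 of them among kept cells, which were kept as separate cells. Ratios needed 50 UMIs and used a pseudocount of 0.5. The count of 0 limit is 3 UMIs. Intervals are exact at 95%. Per-cell shares were also taken from cells thinned to 3000 UMIs. Many cells lie near a gate's limit: 46 cells have 4 neutrophil markers and 110 have 1 fewer, and for the C1q list these numbers are 319 and 468. The 2 marker symbols Tcrg-C1 and Tcrg-C2 matched no row, and the 2 rows named Dpep2 were summed.

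Genes named were the 10 members, pathway genes highest in a gate or past 2-fold, and the 3 genes most like each member among those reaching 10 CPM in at least 2 points, of which 1 is not reported here. A selection of these pathway genes is given, and the context genes beside Ptgs2 were chosen after their values were seen. Gene coordinates are those of GENCODE M21, and promoters those of RefSeq (GRCm38.p6). Python 3.11.15, NumPy 2.4.6, SciPy 1.17.1 and pandas 2.3.3 were used. The ratio intervals were tested on simulated Poisson counts only. These hold no spread between cells, so they cannot show how the intervals fare where UMIs gather in single cells. Alternatives covered the cell filter, thinning, cells of more than 1 lineage, 1 more marker, the UMI minimum, the mean over cells, the genes in the total and the centring of ratios.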

Additional observations from a re-analysis of the deposited data

How the results depend on the processing

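Values were recomputed under 8 kinds of alternative, plus leaving out the cell with the most UMIs of a gene, chosen after seeing the data. Of 643 alternative values for 87 results, 579 kept their direction and stayed within the counting interval or, for counts, within 1.5 times. The number of genes with the same highest class in both libraries (7) and the number highest in mast cells (4) stayed within 1.5 times under all that were run. The direction turned for Ptgs2 in type 2 dendritic cells, whose log2 library ratio went from -0.57 to 0.69 with 1 more marker. With 1 more marker the neutrophil Ptgs2 ratio went from -0.25 to -0.43, and pairs past 2-fold from 3 to 5. With a minimum of 20 UMIs there were 9 such pairs, and in the pathway list 5 higher and 6 lower in place of 3 and 1. With the stricter cell filter, which left 36 and 63 neutrophils, Ptgs2 in neutrophils over classical monocytes went from a log2 of 3.50 and 3.16 to 3.78 and 3.32, the Alox5ap neutrophil library ratio from 0.34 to 0.078, and Alox5ap in neutrophils over mast cells in library 1 from -0.11 to 0.15. With cells of more than 1 lineage kept, the Ptgs2 values were 3.22 and 2.88. Without mitochondrial and ribosomal protein genes the library 2 value was 2.99, and Alox5ap in neutrophils over mast cells stood at -0.40 and -0.090. Thinned to 3000 UMIs, that value was -0.079 in library 2 against 0.17, Hpgds in mast cells over C1q macrophages was 1.92 and 1.89 against 1.48 and 1.46, and Ltc4s in mast over migratory dendritic cells in library 1 was 0.0 against 1.18. The cause of these shifts was not tested. No paired analysis was possible because each group had 1 sample and no test was run. Ptges, Ptger2 and the neutrophil and mast cell values of Ptgs1 and Ltc4s rest on few UMIs.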
